A study of Mus musculus with 4 samples.

Results

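The genes described here encode proteins that repair DNA or halt the cell cycle when DNA is damaged. The list holds 40 gene symbols, and the rule that defines it is gene function, although it was drawn up with earlier results of these data known. Of the 40 genes, 39 had a probe set annotated to that symbol alone, out of 19938 genes named in this way on the array. Xrcc2 was not analysed here. The values are Affymetrix array intensities, compared on the log2 scale, in type 2 conventional dendritic cells (cDC2) sorted from mouse spleen. The 2 WT samples came from Zbtb46-GFP chimeric mice, and the 2 Id2 KO samples came from chimeric mice that carried the same Zbtb46-GFP reporter together with the Id2 knockout. The labels name no treatment and no time points. Host, donor and age of the chimeras, the share of host cells, the deleted part of Id2 and any pooling of animals are not given in the sources used here. The sample labels give the spleen as the tissue throughout, whereas the text on the design calls the cells splenic and also names bone marrow as what they were sorted from. The labels do not say whether replicates came from separate mice, and p-values then cover just the spread among the arrays at hand, which can be technical.

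Dendritic cells take up antigen and present it to T cells, and cDC2 present mainly to CD4 T cells. They arise from dividing precursors, and some cells still divide in the spleen. Breaks in both strands of DNA are mended by homologous recombination, which copies an intact sister chromatid and is used after replication, or by end joining, which can act throughout the cell cycle. The Fanconi anaemia proteins open crosslinks between strands, mismatch repair corrects replication errors, and base excision repair replaces single damaged bases. Kinases such as Atr and Atm sense stalled forks and breaks, and pass the signal to the checkpoint kinases Chek1 and Chek2. Many genes of recombination and replication-coupled repair are known to be transcribed mainly in dividing cells, whereas many genes of break sensing, end joining and excision repair are transcribed in resting cells too.

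The 4 arrays had median intensities between 128 and 134. Of a list of 12 cDC2 and conventional dendritic cell markers, all passed the intensity filter on the mean of the 4 arrays, but Zbtb46 did so through the WT arrays alone, with 6.49 and 6.59 on the Id2 KO arrays. Of 7 cDC1 markers, Batf3, Itgae, Cd8a and Tlr3 passed the filter and Xcr1, Clec9a and Cadm1 did not. Id2 itself read 9.14 and 9.08 (log2 intensity) on the WT arrays and 8.71 and 8.97 on those labelled Id2 KO, a difference of -0.27 with an adjusted p of 0.172 in limma, which misses the threshold, although it passed without Id2 KO replicate 2 (-0.40, adjusted p = 0.0326). Every direction below therefore rests on the labels. Xist read 11.96 on each WT array against 6.67 and 6.68 on those labelled Id2 KO. Kdm5d on the Y chromosome was at 5.72 and 5.53 against 8.08 and 8.50. By these 2 genes the WT arrays read as female and the Id2 KO arrays as male. In every difference below, genotype and sex therefore cannot be told apart. Between these groups 21 of the 36 repair genes tested rose and none fell, with adjustment over all 11963 genes tested. Of all tested genes, 5.53% rose and 2.52% fell, 8.04% in either direction. Both Id2 KO arrays lay above both WT arrays in 30 of the 36 (27.9% of all tested genes) and below them in 2 (22.8%). The median log2 difference was 0.44 over the 36 repair genes and 0.01 over all tested genes.

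Among the listed genes, the share of tested genes that rose was largest in homologous recombination, mismatch repair and the RecQ and lesion bypass genes. It was smallest in base excision repair and end joining. Among tested genes, 8 of 8 rose in homologous recombination (median log2 difference 0.83), 3 of 3 in mismatch repair (0.39), 2 of 3 of the RecQ and lesion bypass genes (0.71), 3 of 6 in the Fanconi anaemia pathway (0.39), 3 of 7 of the checkpoint and break-sensing genes (0.22), 1 of 6 in base excision and single-strand break repair (0.11) and 1 of 3 in end joining (0.23). Of all tested genes 5.53% rose, and the rises in base excision repair and in end joining are 1 gene each. The counts by pathway are descriptions, and the differences between pathways were not tested. They include 4 genes that passed the intensity filter through the Id2 KO arrays alone. These are Rad51ap1 and Rad54b in homologous recombination, Chek1 among the checkpoint genes, and Polq, the 1 rise in end joining. The smallest groups hold 3 genes. Further genes of these pathways, described below, gave another order. Of those tested, 6 of 15 checkpoint, 5 of 16 homologous recombination, 2 of 9 Fanconi anaemia and 3 of 14 base excision genes rose. Lesion bypass gave 1 of 13, end joining 0 of 6 and mismatch repair 0 of 2.

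The filter kept genes with a mean over the 4 arrays above the 40th percentile, at log2 6.77. Brca1, Fancm and Xrcc5 lay below it. Rad51ap1, Rad54b, Polq and Chek1 had WT means below 6.77 and passed it through the Id2 KO arrays alone, so their presence among the tested genes depends on the difference itself. Polq lay just under that level in WT. The other 32 tested genes had both group means above that level, and 17 of them rose. The matching share over all genes was not computed. Without any filter, 19 of all 39 measured genes rose and none fell, against 2.75% and 1.42% of 19938 genes, and the median of the 39 was 0.45. In 32 of the 39 both Id2 KO arrays lay above both WT arrays, compared with 20.9% of all genes, and in 2 of the 39, Fancl and Neil1, they lay below, compared with 23.2%. The plot of each array's deviation from the WT mean shows these gaps gene by gene.

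**Figure D1:**
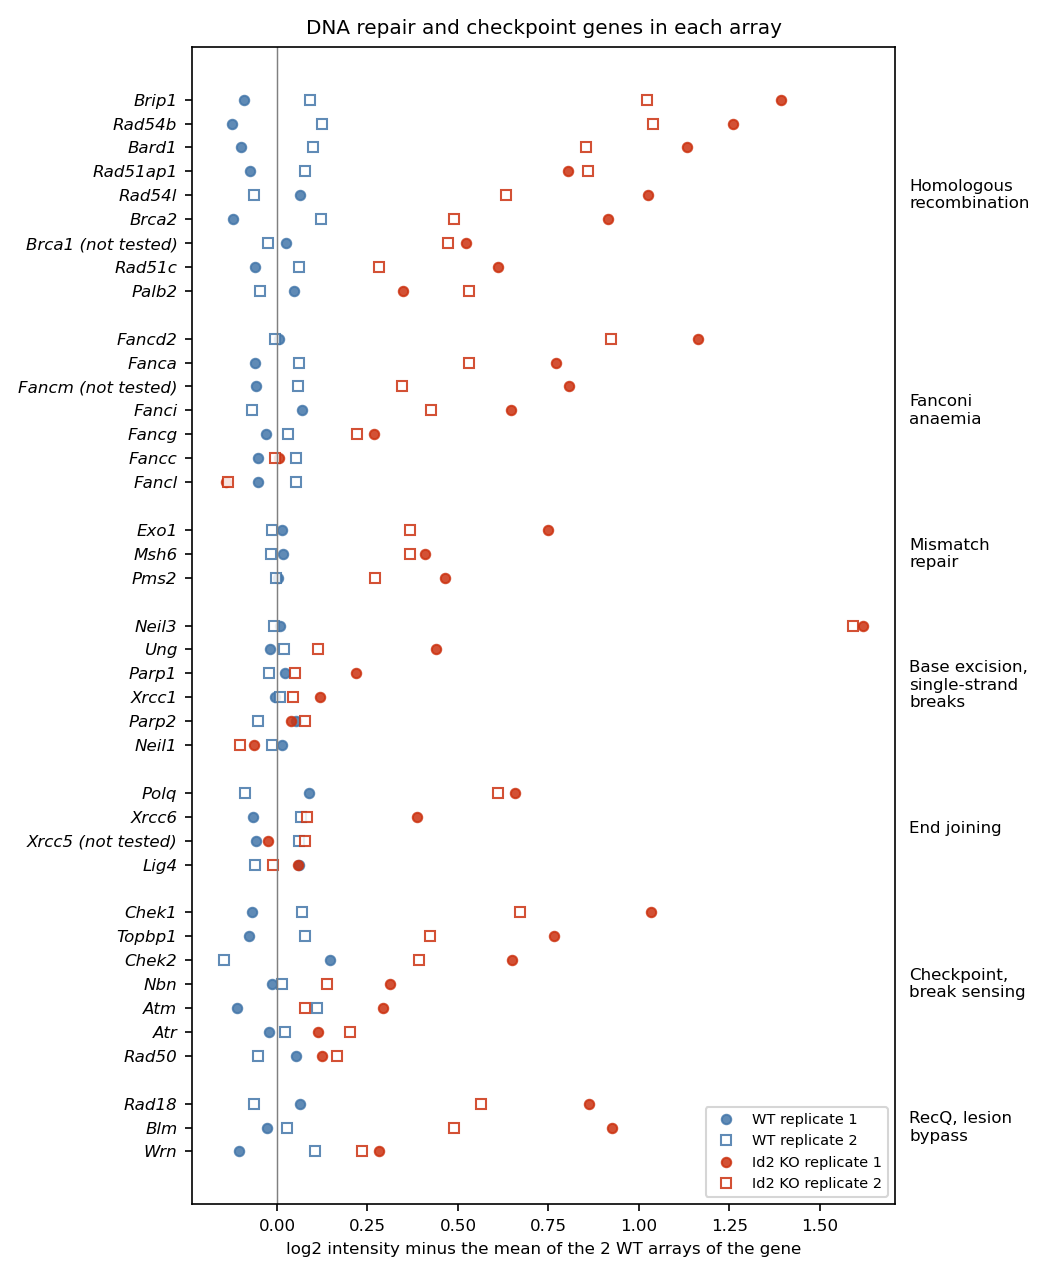
Log2 intensity of each of the 39 measured repair genes on each array, minus the mean of that gene's 2 WT arrays (circles replicate 1, squares replicate 2; blue WT, red Id2 KO), ordered by pathway. Both red symbols lie to the right of both blue symbols in 32 genes and to the left in Fancl and Neil1.

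Because many of these genes moved together, the promoter windows of RefSeq (assembly GRCm38.p6) were searched for short words that are known from cell cycle promoters and for the E-box, the class of site bound by the E proteins that Id2 restrains. The 250 bases before the annotated start were read on both strands for 33 of the 39 genes, and Rad54b, Wrn, Exo1, Fancd2, Nbn and Rad50 had no window. The E2F-type words TTTGGCG or TTTCCCG were present in 4 of 18 genes that rose (Brca2, Bard1, Chek2 and Topbp1) and in 2 of the 15 others (Fancg and Xrcc6), and in 4.54% of all 27025 genes with a window. In each of the 6 named genes the match was to TTTCCCG, which 3.20% of all genes hold. The CHR word TTTGAA was present in Bard1 and Polq, 2 of the 18, in none of the 15 and in 18.3% of all genes. The word CCAAT was present in 8 of the 18, in 6 of the 15 and in 37.5% of all genes. The 15 include Brca1, Fancm and Xrcc5, which lay below the filter and were not tested, and each of them holds CCAAT. Brca1 rose without the filter. The E-box words CAGCTG or CACCTG were present in 3 of the 18 (Palb2, Rad54l and Fanca), in 2 of the 15 (Neil1 and Lig4) and in 30.6% of all genes. No word lies whole inside another on either strand, and a window can hold several words, as that of Bard1 does. A match is a description of letters and shows no binding.

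The stretches around the TTTCCCG matches are shown because this E2F-type word is the one matched in these genes, on either side of the test's threshold. Each runs 5′ to 3′ on the gene's strand with up to 40 bases on either side, and capitals mark the match, which reads CGGGAAA where it lies on the opposite strand. The match begins 209 bases before the start in Bard1 (chr1:71103135-71103221, minus strand), 167 in Brca2 (chr5:150522414-150522500, plus), 151 in Chek2 (chr5:110839792-110839878, plus), 236 in Topbp1 (chr9:103305077-103305137, plus), 52 in Fancg (chr4:43010307-43010393, minus) and 45 in Xrcc6 (chr15:82016284-82016368, plus). The first 4 rose and the last 2 did not pass.
Bard1: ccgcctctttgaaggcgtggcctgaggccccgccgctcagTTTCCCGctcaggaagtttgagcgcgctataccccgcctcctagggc
Brca2: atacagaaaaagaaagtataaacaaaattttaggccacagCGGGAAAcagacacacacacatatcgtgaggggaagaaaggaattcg
Chek2: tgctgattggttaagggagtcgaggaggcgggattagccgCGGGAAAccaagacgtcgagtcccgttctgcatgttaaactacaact
Topbp1: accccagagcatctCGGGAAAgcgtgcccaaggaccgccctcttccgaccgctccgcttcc
Fancg: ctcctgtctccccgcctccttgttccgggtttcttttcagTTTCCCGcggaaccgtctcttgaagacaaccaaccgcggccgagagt
Xrcc6: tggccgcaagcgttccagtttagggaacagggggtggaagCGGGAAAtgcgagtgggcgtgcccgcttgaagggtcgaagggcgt

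Homologous recombination genes rose throughout the 8 that were tested, by between 0.44 and 1.21 on the log2 scale. The helicase gene Brip1, whose protein binds Brca1 and unwinds DNA at forks, had WT values of 6.99 and 7.17 and Id2 KO values of 8.47 and 8.10, a 2.31-fold rise (log2 difference 1.21, 95% interval 0.92 to 1.49, adjusted p = 4.78e-04). Rad54b, a DNA-dependent motor of strand pairing, was at 6.42 and 6.67 against 7.81 and 7.59 (difference 1.15, interval 0.90 to 1.40, adjusted p = 3.28e-04). Its paralogue Rad54l was at 6.93 and 6.81 against 7.89 and 7.50 (difference 0.83, interval 0.54 to 1.11, adjusted p = 0.00376). In each of these genes the lower Id2 KO array stood above the higher WT array. Rad51ap1, which stimulates strand invasion, had WT values of 6.30 and 6.45 and Id2 KO values of 7.18 and 7.23 (difference 0.83, interval 0.63 to 1.03, adjusted p = 4.87e-04). Unlike most of the genes that rose, it was slightly higher in Id2 KO replicate 2 than in replicate 1. Adjusted p-values here and below are limma's.

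The genes of the Brca1 and Brca2 complexes followed the same direction with a wide range of sizes. Bard1, the partner of Brca1 in a ubiquitin ligase, had WT values of 7.79 and 7.99 and Id2 KO values of 9.03 and 8.75, a 1.99-fold rise (difference 0.99, interval 0.74 to 1.25, adjusted p = 7.93e-04). Its dimmer 2 probe sets differed by 0.59 and 0.66 in the same direction. Brca1 itself was dim, at 6.44 and 6.39 against 6.94 and 6.89, and was not tested with the filter. Its groups did not overlap, and without the filter it rose by 0.50 (adjusted p = 0.0109). Brca2, which acts on single-stranded DNA at resected breaks, was at 6.80 and 7.05 against 7.84 and 7.41 (difference 0.70, interval 0.38 to 1.02, adjusted p = 0.0165). Palb2, the bridge between Brca1 and Brca2, was at 7.07 and 6.98 against 7.38 and 7.56 (difference 0.44, adjusted p = 0.0196). Rad51c, a further gene of strand exchange, was at 6.76 and 6.88 against 7.43 and 7.10 (difference 0.45, adjusted p = 0.0477), the member closest to the threshold of 0.05. Its call was lost without the filter, with repeated quantile normalization, and without WT replicate 1, WT replicate 2 or Id2 KO replicate 1. Palb2 lost its call without either WT array and without Id2 KO replicate 2, and Brca2 without WT replicate 1. Brip1, Rad54b, Bard1, Rad51ap1 and Rad54l passed with each array left out.

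In the Fanconi anaemia pathway both substrates of the ligase rose, and of the core complex Fanca alone passed among the 4 subunits tested. Fancd2 and Fanci form the pair of proteins that the core complex tags with ubiquitin at a crosslink. Fancd2 had WT values of 6.79 and 6.78 and Id2 KO values of 7.95 and 7.71, a 2.06-fold rise (difference 1.04, interval 0.82 to 1.26, adjusted p = 2.79e-04). Fanci was at 6.86 and 6.72 against 7.44 and 7.21 (difference 0.54, interval 0.31 to 0.76, adjusted p = 0.0117), and lost its call without WT replicate 2. In the core complex, Fanca was at 7.78 and 7.91 against 8.62 and 8.38 (difference 0.65, interval 0.42 to 0.88, adjusted p = 0.00435). Fancg, the subunit that joins Fanca to the complex, was at 8.70 and 8.76 against 8.99 and 8.95, without overlap, and its difference of 0.24 did not pass (interval 0.06 to 0.43, adjusted p = 0.114). Fancl, the ligase subunit, was at 8.26 and 8.37 against 8.17 and 8.18 (difference -0.14, interval -0.32 to 0.05, adjusted p = 0.397), and it had the lowest difference of the 39 genes. Fancc was at 6.94 and 7.04 against 7.00 and 6.98, with groups that overlapped and an interval of -0.19 to 0.19. Fancm, the translocase that brings the complex to DNA, lay below the filter at 6.13 and 6.25 against 7.00 and 6.54. It did not pass without the filter either (difference 0.58, adjusted p = 0.0593).

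All 3 mismatch repair genes rose, each by less than 1.5-fold. Exo1, the exonuclease that removes the mismatched strand and also trims broken ends for recombination, had WT values of 7.04 and 7.01 and Id2 KO values of 7.77 and 7.39 (difference 0.56, interval 0.29 to 0.83, adjusted p = 0.0225). Msh6, which recognises mismatches, was at 8.29 and 8.26 against 8.69 and 8.64 (difference 0.39, interval 0.21 to 0.57, adjusted p = 0.0175). Pms2, which nicks the strand to be replaced, had WT values of 7.61 and 7.61 and Id2 KO values of 8.07 and 7.88 (difference 0.37, interval 0.16 to 0.57, adjusted p = 0.0406). In each gene both Id2 KO arrays lay above both WT arrays. All 3 calls were lost without WT replicate 1, without WT replicate 2 and without Id2 KO replicate 1, and that of Pms2 also without the filter (adjusted p = 0.0738).

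Base excision and single-strand break repair held the largest difference of the 39 genes, in Neil3, beside 5 genes that did not pass. Neil3 encodes a glycosylase that cuts out oxidised bases and unhooks crosslinks at replication forks. It had WT values of 8.21 and 8.20 and Id2 KO values of 9.83 and 9.80, a 3.04-fold rise (difference 1.61, interval 1.43 to 1.78, adjusted p = 1.75e-05), and it passed under all 12 alternatives tried. Its paralogue Neil1 was at 7.20 and 7.18 against 7.13 and 7.09 (difference -0.08, interval -0.26 to 0.09, adjusted p = 0.618). The difference between the 2 glycosylase genes was not tested. Ung, which removes uracil from DNA, was at 7.17 and 7.21 against 7.63 and 7.30 (difference 0.28, interval 0.03 to 0.53, adjusted p = 0.197). It passed without Id2 KO replicate 2 (adjusted p = 0.0201). Parp1 and Parp2, the enzymes that mark strand breaks with ADP-ribose, differed by 0.14 (interval -0.07 to 0.34) and 0.06 (interval -0.13 to 0.24). Xrcc1, the scaffold of single-strand break repair, differed by 0.08 (interval -0.10 to 0.26).

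Among the end-joining genes, Polq passed. Of the classical pathway, Xrcc6 and Lig4 did not pass and Xrcc5 was not tested. Polq encodes the polymerase of the alternative route, which anneals short matching stretches at broken ends. It had WT values of 6.85 and 6.68 and Id2 KO values of 7.42 and 7.38, a 1.55-fold rise (difference 0.63, interval 0.43 to 0.84, adjusted p = 0.00257), and passed with each array left out. The Ku subunit gene Xrcc6 was at 7.19 and 7.32 against 7.64 and 7.34, where 1 of the Id2 KO arrays stood apart (difference 0.23, interval -0.02 to 0.49, adjusted p = 0.279). Without Id2 KO replicate 2 it passed (adjusted p = 0.0462). The other Ku subunit gene, Xrcc5, lay below the filter at 6.29 and 6.40 against 6.32 and 6.42, and its groups overlapped. Lig4, the ligase that seals the ends, was at 7.32 and 7.20 against 7.31 and 7.25 (difference 0.02, interval -0.17 to 0.22).

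The effector kinases of the damage checkpoint rose, while the kinases above them did not pass. Chek1, which slows the cycle when forks stall, had WT values of 6.62 and 6.76 and Id2 KO values of 7.73 and 7.36, a 1.81-fold rise (difference 0.85, interval 0.58 to 1.13, adjusted p = 0.00267). Topbp1, the activator of Atr, was at 8.93 and 9.08 against 9.77 and 9.43 (difference 0.59, interval 0.33 to 0.86, adjusted p = 0.0159). Chek2, the kinase downstream of Atm, was at 7.19 and 6.89 against 7.69 and 7.43 (difference 0.52, interval 0.25 to 0.80, adjusted p = 0.0317). The groups of all 3 genes were separate, but Topbp1 lost its call without WT replicate 1, and Chek2 without WT replicate 2, without Id2 KO replicate 1 and without the filter. The kinase gene Atr was at 7.42 and 7.47 against 7.56 and 7.65 (difference 0.16, interval -0.03 to 0.34, adjusted p = 0.32). Atm was at 8.01 and 8.23 against 8.41 and 8.20, with overlapping groups (difference 0.18, interval -0.06 to 0.43, adjusted p = 0.384). The genes of the complex that binds broken ends gave differences of 0.22 in Nbn (interval 0.02 to 0.43, adjusted p = 0.189) and 0.14 in Rad50 (interval -0.04 to 0.33, adjusted p = 0.378). The Nbn value is of its brightest probe set, and a dimmer one differed by -0.06. Whether the effector kinase genes differ from Atr and Atm in their response was not tested.

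Of the helicase and lesion bypass genes, Rad18 and Blm rose by nearly the same amount. Rad18, the ubiquitin ligase that switches replication to bypass polymerases, had WT values of 8.62 and 8.49 and Id2 KO values of 9.42 and 9.12, a 1.64-fold rise (difference 0.71, interval 0.46 to 0.96, adjusted p = 0.0042). The RecQ helicase gene Blm, whose protein dissolves joined chromatids after recombination, was at 7.49 and 7.55 against 8.44 and 8.01 (difference 0.71, interval 0.41 to 1.00, adjusted p = 0.0112). Blm lost its call without WT replicate 1. Its relative Wrn was at 8.14 and 8.35 against 8.52 and 8.48, without overlap, and its difference of 0.26 did not pass (interval 0.05 to 0.47, adjusted p = 0.153). Fancg, Ung, Nbn and Wrn were the 4 genes with an unadjusted p under 0.05 that failed after adjustment.

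**Figure D2:**
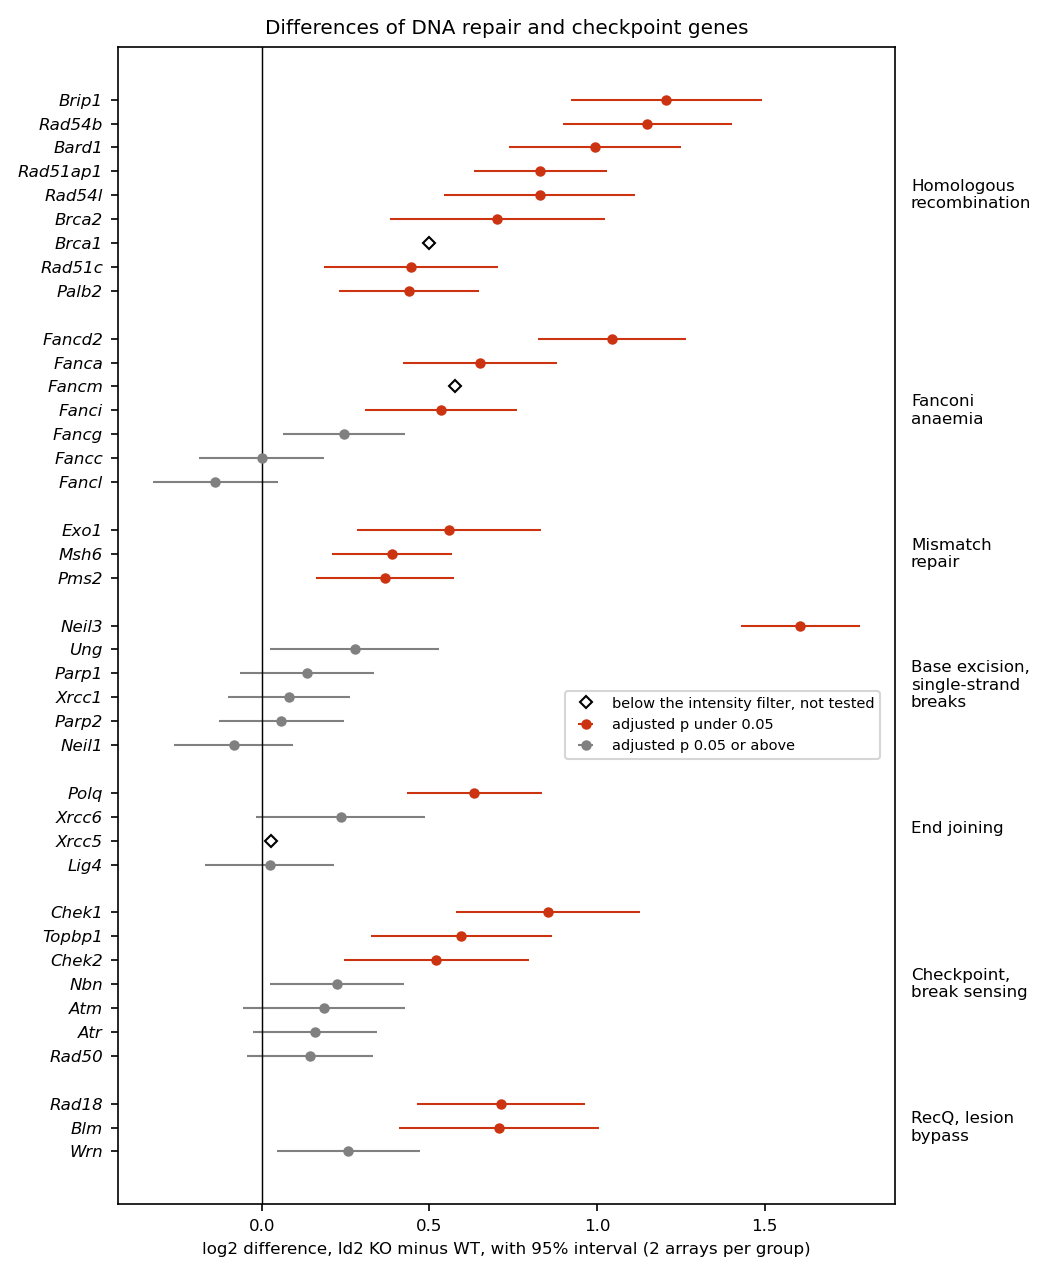
Log2 difference, Id2 KO minus WT, of the 39 measured repair genes by pathway, with 95% intervals from the limma fit (2 arrays per group; intervals not adjusted for the number of genes). The 21 genes that passed (red) run from 0.37 in Pms2 to 1.61 in Neil3, the 15 that did not (grey) run from -0.14 to 0.28, and open diamonds are the 3 genes below the intensity filter.

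Further genes of these pathways rose in part and none fell. Of 103 further repair genes listed by function, 93 were measured and 86 tested, and 17 rose (19.8%, against 5.53% of all tested genes) and none fell (2.52%), with a median log2 difference of 0.10. Eme1, Ube2t and Clspn, 3 of the 17, had WT means below the filter level and were tested because of their Id2 KO level. Without the filter 13 of the 93 rose, against 2.75% of all genes, and none fell. In homologous recombination 5 of 16 rose, led by Gen1, a nuclease that cuts joined chromatids, at 6.77 and 7.26 in WT against 8.49 and 8.38 in Id2 KO (difference 1.42, adjusted p = 3.80e-04), and by Eme1, the partner of the nuclease Mus81 (difference 0.64, adjusted p = 0.0425). In the Fanconi anaemia pathway 2 of 9 rose, namely Ube2t, the ubiquitin-conjugating enzyme of the core complex (0.67, adjusted p = 0.00375), and Usp1, the enzyme that removes that ubiquitin (0.47, adjusted p = 0.00707). In base excision repair 3 of 14 rose, led by the flap nuclease gene Fen1 (0.77, adjusted p = 0.00645) and the ligase gene Lig1 (0.61, adjusted p = 0.0303), both of which also act on Okazaki fragments during replication.

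The checkpoint genes outside the 40 gave 6 rises of 15 tested, the largest share among these further groups. H2ax, the histone variant phosphorylated around breaks, had WT values of 8.68 and 8.77 and Id2 KO values of 10.11 and 9.75 (difference 1.21, adjusted p = 3.30e-04). Clspn, the adaptor between Atr and Chek1, was at 6.62 and 6.51 against 7.50 and 7.40 (difference 0.88, adjusted p = 3.40e-04). In lesion bypass 1 of 13 rose, Polh, a polymerase that copies past ultraviolet damage, at 7.05 and 6.87 against 8.13 and 7.93 (difference 1.07, adjusted p = 2.86e-04). Mismatch repair gave 0 of 2, end joining 0 of 6 and nucleotide excision repair, which removes bulky damage, 0 of 11, with medians of 0.13, 0.02 and -0.01. With 5.53% of all tested genes higher, counts of 0 or 1 in groups of this size are near the background. The nucleotide excision genes ran from -0.21 in Xpa (adjusted p = 0.245) to 0.30 in Ddb1 (adjusted p = 0.16), 2 genes named after their values were seen. Eme1 lost its call without WT replicate 2, without Id2 KO replicate 1 and without the filter, Lig1 without either WT array and without Id2 KO replicate 1, and Usp1 without WT replicate 1.

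**Figure D3:**
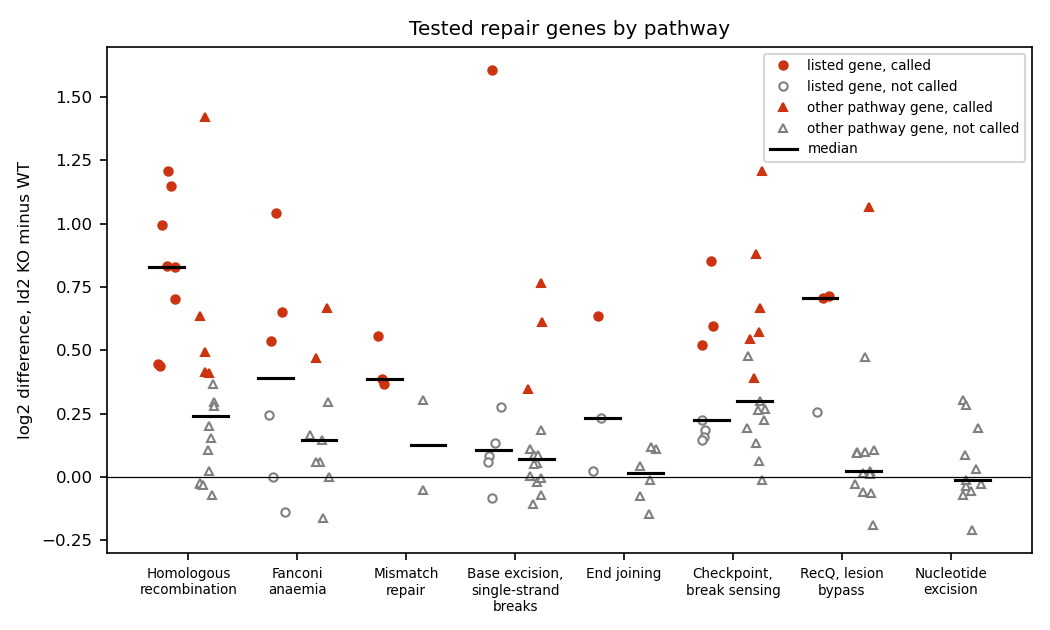
Log2 difference, Id2 KO minus WT, of every tested repair gene by pathway: circles are the 36 tested genes of the list of 40, triangles the 86 further pathway genes, red those that passed (adjusted p under 0.05), and bars the medians. The medians of the circles run from 0.11 in base excision repair to 0.83 in homologous recombination, and 0 of 11 nucleotide excision genes passed, where 5.53% of all tested genes rose.

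The repair genes did not stand at the same height in the 2 Id2 KO arrays. Of the 36 tested genes, 30 (83.3%) were higher in Id2 KO replicate 1 than in replicate 2, compared with 55.4% of all tested genes, and the median gap over the 36 was 0.20. Among the 21 that rose, 19 were higher in replicate 1, Palb2 and Rad51ap1 being the exceptions. A list of 20 proliferation genes, none of which is among the 40, had 19 genes tested. Of these 18 rose, against 5.53% of all tested genes, and Pcna did not pass (0.36, adjusted p = 0.0676 in limma). The median was 1.12, and all 19 read higher in Id2 KO replicate 1 than in replicate 2. Mki67, a protein of cycling cells, read 10.13 on each WT array, and 11.48 and 11.33 on the Id2 KO arrays. The summed intensity of the 19 was 10807 and 11080 for WT against 23885 and 18618 for Id2 KO. The part of these proliferation levels in the rise of the repair genes was not tested. In bulk samples such as these, more cells that express a gene and more RNA per cell cannot be told apart.

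Markers of other cells moved between the groups as well. Of the 9 B cell genes measured, 8 were tested and rose, against 5.53% of all tested genes. In 2 of the 8, Cr2 and Fcer2a, the WT mean lay below the filter level. Without the filter 8 of the 9 rose, against 2.75% of all genes, with Ebf1 gained and Blk lost (adjusted p = 0.0782 in limma). The median of the 8 tested genes was 1.27. Their summed level with the dim gene Ebf1 was 1253 and 1242 for WT against 2551 and 2909 for Id2 KO. Unlike most of the repair genes, all 8 tested genes were higher in Id2 KO replicate 2. Ebf1 read 7.39 and 7.30 in Id2 KO replicates 1 and 2. All 12 neutrophil genes fell (median -2.69), against 2.52% of all tested genes, and all 12 fell without the filter, against 1.42%. Mmp8, Mpo, Prtn3 and Cxcr2, 4 of the 12, had Id2 KO means below the filter level and were tested because of their WT level. The summed levels of the 12 were 17984 and 18664 for WT against 1563 and 2476 for Id2 KO. Of the cDC2 and conventional dendritic cell markers, 1 rose and 3 fell among 12 (summed levels of 48744 and 49199 against 45501 and 47567). Esam rose by 0.53, while Zbtb46, the transcription factor that marks conventional dendritic cells, fell by 1.02, Itgam fell by 1.00 and Cd4 fell by 0.84 on the log2 scale. The lists of monocytes and macrophages and of erythroid cells had 4 of 6 and 2 of 4 genes lower and none higher. Those of cDC1 and of T and NK cells had 1 of 4 lower each, and that of plasmacytoid dendritic cells had 3 of 6 higher. Of all tested genes 2.52% fell and 5.53% rose. The part of these marker lists in the differences of the repair genes was not tested.

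**Figure D4:**
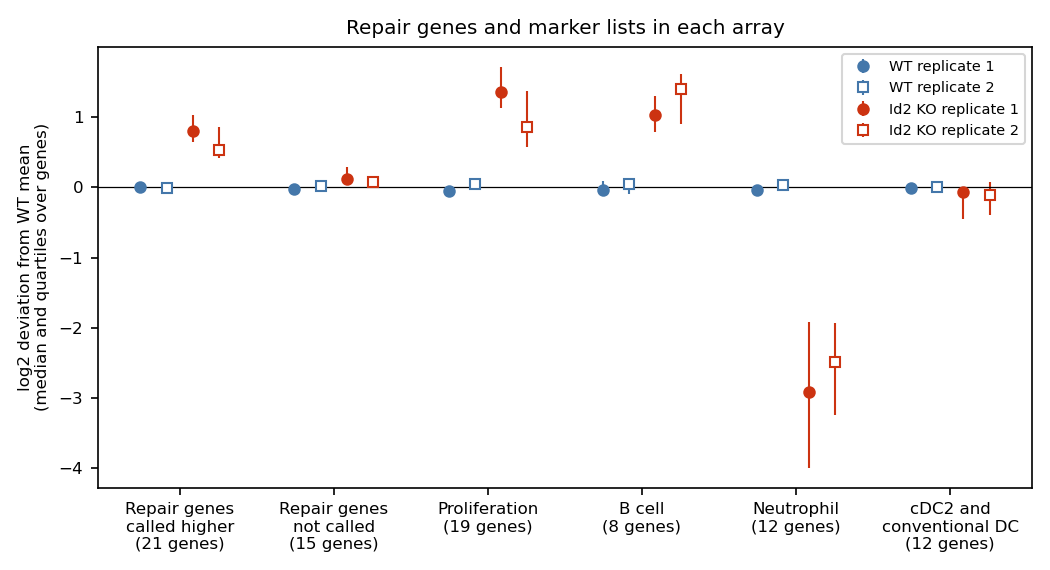
Median over genes (error bars, quartiles) of the log2 deviation from each gene's WT mean on every array, for repair genes that rose or did not pass and for lists of marker genes (blue WT, red Id2 KO; circles replicate 1, squares replicate 2). The 21 repair genes that rose had medians of 0.80 and 0.53 in Id2 KO replicates 1 and 2, the proliferation list 1.35 and 0.87, and the B cell list 1.02 and 1.40.

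With 2 arrays per group, an exact two-sided permutation test of a single gene cannot give a p below 0.333, so the calls rest on the spread that limma shares across genes. The count of repair genes that rose was 13 without WT replicate 1, 14 without WT replicate 2, 16 without Id2 KO replicate 1 and 22 without Id2 KO replicate 2, and none fell in any of these fits. The number of all genes called in either direction followed the same order over these fits. Each of these fits leaves 1 group with a single array, which is assumed to vary like the other group. Without WT replicate 1 all 13 were among the 21.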

How the data were processed

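The authors deposited a table of linear intensities, 1 for each probe set on each array. The submitters' processing notes name Affymetrix Expression Console and RMA, without a version, role or order. The linear scale was read from the values, and a genome build is not given in the sources used here. Per the labels' protocols, RNA was amplified with a NuGen Ovation PicoSL system. This can shift the level of some transcripts.

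Log2 was taken without a pseudocount. Of 28853 probe sets, 21789 had 1 gene symbol in the platform annotation, standing for 19938 genes, 1621 had several and 5443 were unnamed. The brightest probe set stood for a gene. Genes above the 40th percentile entered a fit by limma 3.58.1 (R 4.3.3; lmFit and eBayes, 2 residual degrees of freedom plus 6.77 from moderation), with Benjamini-Hochberg adjustment over the 11963 genes and a threshold of 0.05. The fit was tested on simulated data. Probe sets differ in response, so levels were compared only within a gene. Precision is limited by having 4 arrays.

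The genes, pathway and marker lists, words and tests were chosen with earlier results of these data known. Genes named were the 40, and the 2 largest changes that passed among further genes of each pathway. The deviations of same-numbered arrays had a weak negative correlation (-0.14 over genes), so the numbers were not taken to pair samples.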

Additional observations from a re-analysis of the deposited data

How the results depend on the processing

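The count of 21 repair genes that rose fell to 9 of 18 tested with genes above the 60th percentile, where the other 12 of the 21 lay below that level and were not tested, and ranged from 13 to 22 with 1 array left out, where the lone array is assumed to vary like the other group. The count of all genes called ranged from 459 (without WT replicate 1) to 1171 (without Id2 KO replicate 2) around 962. Above the 60th percentile, 9.42% of the 7975 genes tested were called in either direction. Centring arrays on their medians, repeated quantile normalization, averaging the probe sets of each gene, an intensity trend and no filter gave between 19 and 21 repair genes. None fell under any alternative. With the replicate number as a replicate block, 17 repair genes and 684 genes in all passed, and the calls of Msh6, Palb2, Pms2 and Rad51c were lost. With the numbers crossed between groups, an alternative added after seeing the data, 21 and 1380 passed. Differences near 0 changed sign: Fancc at 0.020 with centred arrays, 0.024 with repeated quantile normalization and between -0.052 and 0.051 with 1 array left out, Parp2 at -0.0016 with repeated quantile normalization, and Lig4 between -0.036 and 0.083 with 1 array left out. The cause of these changes was not tested. Of the single-gene values under an alternative, 36 lost a call, 3 gained one (Ung, Xrcc6 and Id2, each without Id2 KO replicate 2) and 483 kept direction and side of the threshold. No detection call was used, so signal over background is unknown for dim genes.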
